A study of Mus musculus with 12 samples.

Results

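Translation initiation factor and regulator genes were followed in mouse B-ALL cells exposed to LY2090314, a small-molecule inhibitor of GSK3. The genes are those of the table whose symbol is Eif followed by a digit, without pseudogene symbols, and whose mean level over the 6 samples used was at least 3. The level is rlog, a regularized log2 of the read count divided by the size factor of the library. The rule found 52 genes among 41444, of which 11536 passed the same limit on the mean and were tested. It uses level and name but not the response to the inhibitor. Below the limit were Eif2s3y, Eif4e1b and Eif2c5, which were listed at 0 in all 6 samples, and Eif4ebp3, which read 1.42 to 1.79. Eif2c5 carries an older symbol for an Argonaute gene and is not an initiation factor. A further 6 symbols with -ps, for pseudogenes, were left out.

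The cells were bone marrow pre-B cells from Ctnnb1 fl/fl mice, grown with IL7, transformed by retroviral BCR-ABL1 and then grown without IL7. All samples used carried the ERT2 vector, which has no Cre, so that the floxed Ctnnb1 alleles, coding for β-catenin, were meant to stay whole. All had 4-OHT, the ligand of ERT2, at 1 µM for 2 days. The control group had 3 samples without LY2090314, and the treated group had 3 samples with LY2090314 at 40 nM for 1 day. The comparison asks how inhibition of GSK3, the kinase that marks β-catenin for degradation, changed gene expression in cells that keep β-catenin. The groups with Cre-ERT2, in which 4-OHT deletes Ctnnb1, were not analysed here, so what part of any difference needs β-catenin cannot be told apart from other effects of the inhibitor. The paper describes the replicates of this experiment as separate mice, but neither the labels nor the column names tie a sample to a mouse. Its legend also gives a shorter exposure to the inhibitor than the 1 day of the labels, which is used here. Samples are numbered 1 to 3 within a group as names only, and treated samples 1 and 2 share a library number in their column names.

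Initiation brings the initiator tRNA, the small ribosomal subunit and the mRNA together at a start codon. The eIF2 complex carries the initiator tRNA with GTP, eIF2B reloads eIF2 with GTP, and 4 kinases halt that reloading by phosphorylating the eIF2 α subunit under stress, which is called the integrated stress response. At the other end, eIF4E binds the mRNA cap, eIF4G and the helicase eIF4A assemble on it, 4E-binding proteins compete with eIF4G for eIF4E until MTORC1 phosphorylates them, and eIF3 joins the cap complex to the ribosome. GSK3 itself is known to phosphorylate the ε subunit of eIF2B, which lowers its activity. Fast-growing B-ALL cells depend on high rates of protein synthesis.

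Markers matched the labelled cell type. All 12 pre-B genes tested lay above 3 in every sample, from 4.48 to 14.47, and all except Cd79a and Dntt, which were higher, were lower in every treated sample than in any control sample. Rag2, for example, read 6.29 to 6.50 in controls and 4.48 to 4.68 in treated samples. All 5 T cell genes, 2 NK cell genes and 4 stromal genes lay below 3 in every sample. Of 6 myeloid genes, 4 lay below 3, Lyz2 read 5.68 to 5.91 in controls and 6.29 to 6.41 in treated samples, and Ly6g read 3.46 to 3.53 in controls and 6.41 to 6.51 in treated samples, while Elane and Mpo were listed at 0. Of 4 erythroid genes, 3 lay below 3, and Hbb-bt read 3.69 to 3.81 in controls and 3.25 to 3.33 in treated samples. The part of these shifts in the initiation factor values was not tested. In bulk RNA, fewer cells of a type and less RNA per cell cannot be told apart. The depth of each library is unknown, since the values are not counts. Control sample 3 and treated sample 3 deviated from their groups in the same way, and results that rest on them are given below with and without them.

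Most initiation factor genes that changed were lower with LY2090314, and 1 was higher. By limma, with Benjamini-Hochberg adjustment over all 11536 genes and a threshold of 0.05, 24 of the 52 fell, 1 rose and 27 did not pass. The falls were 46.2% of the set and the rise 1.9%. Over all genes tested, 50.1% passed in either direction, with 25.3% lower and 24.8% higher. Among the 6792 genes at least as highly expressed as the lowest member, whose mean rlog was 8.32, 30.6% were lower and 25.4% higher. The initiation factor genes thus passed about as often as all genes tested, and less often than genes at or above 8.32. They were called lower more often than either background. None of these differences was tested. Counts of the single role groups below are to be read against the same shares.

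Single falls were small. The median log2 difference, treated minus control, was −0.19 over the 52 genes, against 0.01 over all genes tested and −0.02 over those at or above 8.32. A negative difference was seen in 41 of the 52 and a positive one in 11. Among genes past the threshold the median size was 0.38, and 18 of the 24 falls were smaller than 0.5 on the log2 scale. In 29 of the 52 the 3 treated samples did not overlap the 3 controls, which is 55.8%. Of all genes tested 58.6% were separated in this way, and of those at or above 8.32 it was 63.7%. An exact permutation test (two-sided) of each separated gene returned p = 0.10, and 3 against 3 samples can go no lower. Centring each sample on its median or quantile normalization gave medians of −0.22 and −0.21 for the set.

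**Figure D1:**
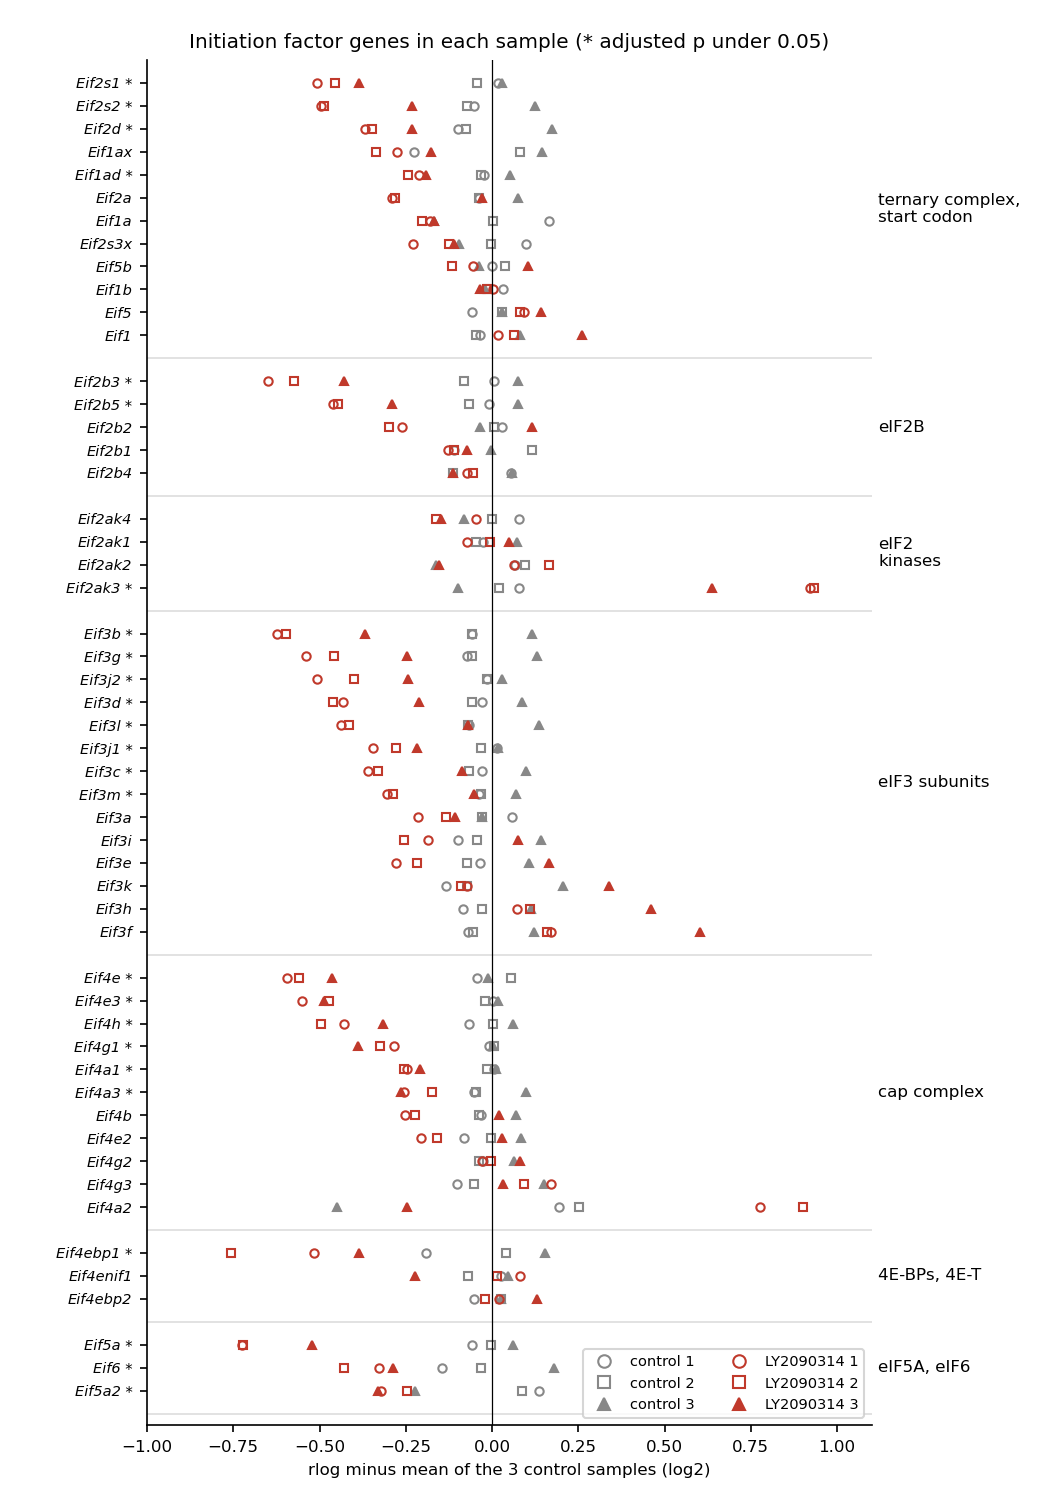
Level of each of the 52 initiation factor genes in each sample, as rlog minus the mean of the 3 control samples (log2, x axis), grouped by role. Grey symbols are control samples, red symbols treated samples, filled triangles sample 3 of each group, and an asterisk marks an adjusted p under 0.05. Red symbols lie left of the grey ones in most starred genes, Eif2ak3 is the sole starred gene to the right, and Eif4a2 has both filled triangles far left of the other samples of their groups.

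**Figure D2:**
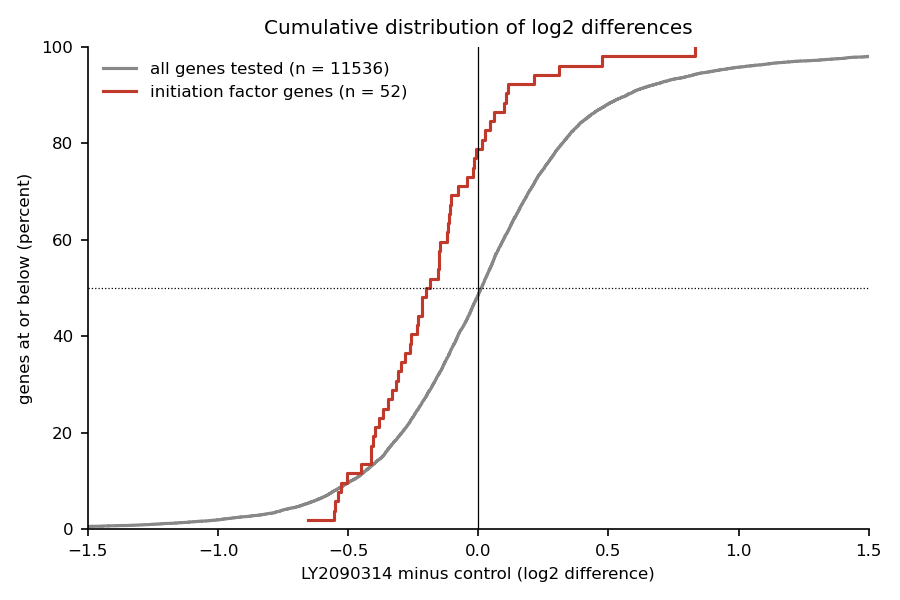
Cumulative percent of genes (y axis) at or below each log2 difference, LY2090314 minus control (x axis), for the 52 initiation factor genes in red and all 11536 genes tested in grey. The red curve crosses 50 percent at −0.19 and the grey curve at 0.01, and the red curve lacks the tails of the grey one. The x axis ends at 1.5 on both sides and leaves out 290 genes.

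The eIF2 kinases held the sole rise, at Eif2ak3, and no fall. Eif2ak3 (ENSMUSG00000031668, chr6:70844515-70905245 on the + strand of GRCm38, as are all positions here) codes for PERK, the eIF2 kinase of the endoplasmic reticulum that responds to unfolded proteins. It read 10.20, 10.14 and 10.02 in the control samples and 11.04, 11.05 and 10.76 in the treated samples. Every treated sample lay above every control sample, and both samples numbered 3 were the lowest of their groups. The gene rose by 0.83 on the log2 scale, or 1.78-fold (SE 0.0894 log2, limma adjusted p = 0.00017, n = 3 and 3), and passed in every alternative that was run.

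The kinases that sense other stresses did not pass. Eif2ak4 codes for GCN2, which responds to uncharged tRNA, and read 9.54, 9.46 and 9.38 in controls and 9.41, 9.30 and 9.31 in treated samples. Its difference was −0.12 (95% confidence interval −0.27 to 0.03). Eif2ak2, for the double-stranded RNA sensor PKR, read 10.02, 10.05 and 9.79 in controls and 10.02, 10.12 and 9.80 in treated samples. The groups overlapped almost wholly, with sample 3 the lowest in both, and the difference was 0.03 (−0.21 to 0.26). For Eif2ak1, the haem-regulated kinase HRI, levels of 10.67, 10.65 and 10.76 in controls stood beside 10.62, 10.69 and 10.74 in treated samples. That difference was −0.01 (−0.14 to 0.12), so changes of the size seen for Eif2ak3 lie outside the intervals of all 3 other kinases. Exons of Eif2ak1 overlap those of Aimp2 on the other strand.

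In the eIF2 complex itself, and among the factors that place it on the start codon, 4 of the 12 genes tested fell, none rose and 8 did not pass, with a median difference of −0.19. The falls were 33.3% of these genes, near the 30.6% of all genes at least as highly expressed as the lowest member. Eif2s1 (ENSMUSG00000021116, chr12:78861819-78887010, + strand) codes for the α subunit that all 4 kinases phosphorylate. It read 11.96, 11.90 and 11.97 in controls and 11.43, 11.49 and 11.55 in treated samples. The groups were separated by several times their spread. The fall was 1.37-fold (log2 difference −0.45, SE 0.0498, limma adjusted p = 0.0002). Eif2s2, the β subunit, fell as well, from 12.58, 12.56 and 12.75 to 12.13, 12.14 and 12.40 (log2 difference −0.41, SE 0.0869, limma adjusted p = 0.0058).

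The X-linked γ subunit gene had a smaller difference, and the subunits were not tested against each other. Eif2s3x (ENSMUSG00000035150, chrX:94188707-94212862, − strand) read 13.68, 13.58 and 13.49 in controls and 13.35, 13.46 and 13.47 in treated samples. The groups did not overlap but lay 0.01 apart at samples 3, and the log2 difference of −0.15 (95% confidence interval −0.31 to 0.00, limma adjusted p = 0.09) did not pass. Its Y-linked counterpart, Eif2s3y, was listed at 0 throughout. Without control sample 3 the γ subunit gene passed with a difference of −0.20, and without both samples numbered 3 it passed with −0.23. The treated samples left in the second of these fits share a library number.

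Eif2d, which can deliver tRNA to the ribosome without eIF2, and Eif1ad, a relative of the scanning factor eIF1A, made up the rest of the falls, at −0.32 and −0.22. Exons of Eif2d overlap those of Rassf5, and exons of Eif1ad those of Banf1, on the other strand. The same holds for Eif2a with Serp1 and Eif5b with Rev1. The library kit was stranded, but no strand setting is stated, so whether reads of such pairs were kept apart is unknown. Eif1ax, Eif2a, Eif1a, Eif5b, Eif1b, Eif5 and Eif1 did not pass, with differences from −0.26 for Eif1ax to 0.11 for Eif1. Eif1ax was the nearest to the threshold (limma adjusted p = 0.055). Eif1 and Eif5, the factors that guard start codon choice and trigger GTP hydrolysis on eIF2, were both among the 11 genes with a positive difference.

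Of the 5 subunits of eIF2B, the exchange factor that GSK3 acts on, 2 fell, none rose and 3 did not pass, and all 5 differences were negative with a median of −0.15. Both falls were in the catalytic part. Eif2b3 (ENSMUSG00000028683, chr4:117019402-117087306, + strand), for the γ subunit, read 8.85, 8.76 and 8.92 in controls and 8.19, 8.27 and 8.41 in treated samples. All treated values lay below all control values, and the fall was 1.46-fold (log2 difference −0.55, SE 0.0814, limma adjusted p = 0.0009). Eif2b5 (ENSMUSG00000003235, chr16:20498817-20509323, + strand), for the ε subunit that carries the exchange activity and the GSK3 site, read 11.45, 11.39 and 11.53 in controls and 11.00, 11.01 and 11.17 in treated samples. It too was separated, with a 1.32-fold fall (log2 difference −0.40, SE 0.0634, limma adjusted p = 0.0013).

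The regulatory subunits of eIF2B showed smaller differences, and the subunits were not tested against each other. Eif2b1, for the α subunit, read 9.76, 9.99 and 9.87 in controls and 9.75, 9.76 and 9.80 in treated samples (log2 difference −0.10). Eif2b4, for the δ subunit, read 8.93, 8.76 and 8.93 in controls and 8.80, 8.82 and 8.76 in treated samples (−0.08). In both the groups overlapped. Eif2b2, for the β subunit, read 10.53, 10.51 and 10.46 in controls and 10.24, 10.20 and 10.61 in treated samples, so that treated sample 3 was the highest of all 6 while the other treated samples were the lowest. Its difference of −0.15 did not pass (limma adjusted p = 0.27), and without treated sample 3 it was −0.28 and passed (limma adjusted p = 0.0025). Exons of Eif2b4 overlap those of Snx17 on the other strand.

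Of the 14 eIF3 genes, 8 fell, none rose and 6 did not pass, with a median difference of −0.24. The largest fall was at Eif3b (ENSMUSG00000056076, chr5:140419328-140443360, + strand), which codes for a scaffold subunit of eIF3. It read 13.76, 13.76 and 13.94 in controls and 13.20, 13.22 and 13.45 in treated samples, without overlap. The fall was 1.44-fold (log2 difference −0.53, SE 0.0855, limma adjusted p = 0.0014). Eif3g (ENSMUSG00000070319, chr9:20894349-20898623, − strand), for an RNA-binding subunit, read 11.41, 11.43 and 11.62 in controls and 10.95, 11.03 and 11.24 in treated samples. It fell 1.33-fold (log2 difference −0.41, SE 0.0882, limma adjusted p = 0.0056), and in both genes sample 3 was the highest of its group.

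Other eIF3 subunits that fell were Eif3d, Eif3j1, Eif3j2, Eif3l, Eif3c and Eif3m, with differences from −0.38 to −0.22. Eif3j1 and Eif3j2 have coding sequences that were 100% identical over 99.0% or more of their length, so how reads were shared between them is uncertain and they may not be separate results. Exons of Eif3j1 overlap those of Spg11 on the other strand. Eif3c, Eif3l and Eif3m were near the threshold (limma adjusted p = 0.036, 0.044 and 0.044), and each held in 1 of the 6 fits that left out a sample. In Eif3l, treated sample 3 read 12.60, level with the controls at 12.60, 12.60 and 12.80, while the other treated samples read 12.23 and 12.25. Eif3a, Eif3i, Eif3e, Eif3k, Eif3h and Eif3f did not pass, with differences from −0.15 to 0.31.

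Within eIF3 the sign of the difference varied, and the subunits were not tested against each other. Eif3f, Eif3h and Eif3k had positive differences, and none of them passed. The 95% confidence intervals of Eif3h and Eif3k were −0.034 to 0.462 and −0.246 to 0.365. Eif3f, for a subunit with an MPN domain like that of Eif3h, had the largest difference of these. It read 13.29, 13.31 and 13.48 in controls and 13.53, 13.52 and 13.96 in treated samples. The groups did not overlap, but treated sample 3 stood 0.43 above the nearest of its group and the difference of 0.31 (95% confidence interval 0.03 to 0.60) missed the threshold (limma adjusted p = 0.066). Without both samples numbered 3, Eif3f passed as higher at 0.23, as did Eif3h at 0.15. The treated samples left in that fit share a library number. These genes were singled out after their values were seen.

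Of the 11 genes of the cap complex that were tested, 6 fell, none rose and 5 did not pass, with a median difference of −0.23. Eif4e (ENSMUSG00000028156, chr3:138526179-138559696, + strand) codes for the cap-binding protein. It read 11.01, 11.11 and 11.04 in controls and 10.46, 10.49 and 10.59 in treated samples. The fall of 1.45-fold (log2 difference −0.54, SE 0.0538) had the lowest adjusted p of all 52 genes (limma adjusted p = 0.00011). Eif4e3 (ENSMUSG00000093661, chr6:99625135-99666771, − strand), which codes for a relative of eIF4E that binds the cap in another way, read 9.37, 9.35 and 9.39 in controls and 8.82, 8.90 and 8.88 in treated samples. It fell 1.42-fold (log2 difference −0.50, SE 0.0553, limma adjusted p = 0.00019), and neither gene showed a sample apart from its group. Exons of Eif4e3 are shared on the same strand with Gm20696, whose mean rlog was 3.89.

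The scaffold followed with a smaller fall. Eif4g1 (ENSMUSG00000045983, chr16:20668313-20692884, + strand), for the main eIF4G, read 14.07, 14.08 and 14.08 in controls and 13.79, 13.75 and 13.69 in treated samples. The control values were nearly equal and all treated values lay below them, a 1.26-fold fall (log2 difference −0.33, SE 0.0542, limma adjusted p = 0.0015). Eif4h, a cofactor of the helicase, Eif4a1, the helicase, and Eif4a3, a helicase of the exon junction complex rather than of initiation, fell by 0.41, 0.24 and 0.23 on the log2 scale. Eif4a1 has a near-identical pseudogene copy, Eif4a-ps4, at 99.9% identity, which read 4.07 to 4.16 in 5 samples and 5.79 in control sample 3. Eif4b, Eif4e2, Eif4g2, Eif4g3 and Eif4a2 did not pass, with differences from −0.15 to 0.48.

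The helicase paralogs were not alike in their values. Eif4a2, which codes for a protein close to that of Eif4a1, read 10.00, 10.06 and 9.36 in controls and 10.59, 10.71 and 9.56 in treated samples. In both groups sample 3 lay at least 0.64 below the others, and the difference of 0.48 had an interval from −0.24 to 1.20 (limma adjusted p = 0.24). With both samples numbered 3 left out the difference was 0.62 and passed, and between those samples alone it was 0.20. The treated samples left in the fit that passed share a library number. Exons of Eif4a2 overlap those of Rfc4 on the other strand.

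Among the proteins that bind eIF4E and keep it from eIF4G, 1 of the 3 genes tested fell and 2 did not pass. Eif4ebp1 (ENSMUSG00000031490, chr8:27260329-27276674, + strand), for the 4E-BP1 target of MTORC1, read 8.41, 8.64 and 8.75 in controls and 8.08, 7.84 and 8.21 in treated samples. The groups were separate but their spread was wider than for Eif4e. The fall was 1.47-fold (log2 difference −0.55, SE 0.123, limma adjusted p = 0.0069). Eif4ebp2 (ENSMUSG00000020091, chr10:61428491-61452661, − strand), for the close relative 4E-BP2, read 13.49, 13.57 and 13.57 in controls and 13.56, 13.52 and 13.67 in treated samples. Those groups overlapped, with a difference of 0.05 (95% confidence interval −0.10 to 0.18). Eif4enif1, for the eIF4E transporter 4E-T, had a difference of −0.04, and Eif4ebp3 was too low to test.

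All 3 genes whose products act beyond initiation fell, with a median difference of −0.35. Eif5a (ENSMUSG00000078812, chr11:69916714-69921958, − strand) codes for the hypusine-bearing factor that helps the ribosome through difficult peptide bonds. It read 14.60, 14.65 and 14.72 in controls and 13.93, 13.93 and 14.13 in treated samples. This was the largest fall of the 52, at 1.58-fold (log2 difference −0.66, SE 0.0758, limma adjusted p = 0.00025). Eif6, which keeps the ribosomal subunits apart, fell by 0.35 on the log2 scale (limma adjusted p = 0.01). Eif5a2, a paralog of Eif5a, fell by 0.30 (limma adjusted p = 0.033). Its control sample 3 read 9.30, near the treated values of 9.20, 9.28 and 9.19, while the other controls read 9.66 and 9.61, and the call held in 1 of the 6 fits without a sample.

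The promoters were searched for CACGTG, the E-box that MYC with MAX and related factors bind, which reads the same on both strands. RefSeq promoters (GRCm38.p6, 250 bases before to 50 after each start) were matched for 42 of the 52 genes by symbol. CACGTG stood in promoters of 10 of the 42, or 23.8%, against 12.2% of the tested genes with a promoter and 8.1% of all genes with one. Of the 19 genes with a promoter that fell, 6 held it, as did 4 of the 22 that did not pass, and the promoter of Eif2ak3 did not. Shares by call were not taken over all genes, and a link of the letters to the falls was not tested. Stretches are shown 5′ to 3′ on the strand of the gene, upstream of the start, for the falls of the cap-binding protein gene, its scaffold and a helicase cofactor, for the largest fall, and for Eif3f, which holds the same letters and had a positive difference. Capitals mark CACGTG.
Eif4e, chr3:138527174-138527239, + strand: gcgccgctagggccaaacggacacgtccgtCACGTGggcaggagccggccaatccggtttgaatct
Eif4g1, chr16:20672643-20672708, + strand: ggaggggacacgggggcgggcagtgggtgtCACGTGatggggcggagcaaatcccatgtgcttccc
Eif4h, chr5:134639470-134639535, − strand: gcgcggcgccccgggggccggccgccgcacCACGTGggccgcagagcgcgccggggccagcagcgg
Eif5a, chr11:69921425-69921490, − strand: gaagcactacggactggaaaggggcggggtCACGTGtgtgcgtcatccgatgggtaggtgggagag
Eif3f, chr7:108934317-108934382, + strand: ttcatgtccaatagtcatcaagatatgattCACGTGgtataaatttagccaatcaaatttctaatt

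The first base of CACGTG lies at position −64 in Eif4e, −54 in Eif4g1, −96 in Eif4h, −74 in Eif5a and −68 in Eif3f, counted from the RefSeq start that the window belongs to. Further copies stand in promoters of Eif4e, Eif4g1 and Eif5a, and the remaining genes with the letters are Eif4a1, Eif5a2, Eif1b, Eif3a and Eif3k. CTTTGA, the core of the sequence bound by TCF/LEF factors, the DNA-binding partners of β-catenin, stood in 7.1% of the 42 promoters against 14.2% of tested genes and 18.2% of all, searched on both strands. Its 3 holders were Eif3g, Eif3l and Eif4enif1. TGATGNAA, the C/EBP-ATF element, stood in the promoter of 1 gene, Eif2s3x, which is 2.4% against 2.7% of tested genes and 4.5% of all. A match is a run of letters and not a shown binding site.

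Genes of the neighbouring steps were given as lists of 82 tested genes, of which 15 rose, 24 fell and 43 did not pass, with a median difference of 0.00. The falls were 29.3% and the rises 18.3% of these genes, beside 25.3% and 24.8% of all genes tested, and the counts of the single lists below are to be read against the same shares. In the list of termination and recycling factors, 5 of the 8 tested fell and 2 rose. Gspt1, for the release factor eRF3, fell from 12.62 ± 0.031 to 12.16 ± 0.068 (mean rlog ± SD, n = 3 each, limma adjusted p = 0.0002), and Mcts2 rose by 0.44 at a mean rlog of 3.39 in controls, close to the limit of 3, with overlapping groups. Elongation factors had 4 falls and 1 rise among 13. Eef1d, a subunit of the exchange factor of eEF1A, fell by 0.57, and Eef1b2, another subunit of the same exchange factor, rose by 0.42. Dohh, whose product completes the hypusine of eIF5A, was among the falls at −0.31, while Dhps, which starts it, differed by −0.02 and did not pass.

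Partners of the cap complex had 5 falls and 2 rises among 17 tested. Larp1, for a cap-binding regulator of mRNAs that code for ribosomal proteins, fell from 13.66 ± 0.010 to 13.05 ± 0.015 (limma adjusted p = 2.6e-05), and Paip2b, for an inhibitor of the poly(A)-binding protein, rose by 0.34. Pdcd4, for an inhibitor of eIF4A, fell by 0.39. In the MTORC1 and MNK list 4 rose and 3 fell among 18. Ddit4, for the MTORC1 inhibitor REDD1, rose by 1.18 and had the largest difference of the list. Mtor rose by 0.68, Rps6kb1, for S6 kinase, by 0.92, and Mknk1, for an eIF4E kinase, by 0.74, while Deptor, for another inhibitor of MTORC1, fell by 0.48.

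The integrated stress response list, which holds both regulators of the eIF2 kinases and genes downstream of them, had 6 rises and 4 falls among 16 tested. Ppp1r15a, for the GADD34 subunit that directs dephosphorylation of eIF2α, rose from 6.91 ± 0.047 to 7.45 ± 0.062 (limma adjusted p = 0.00097). Impact, for an inhibitor of GCN2, rose by 0.62 with groups that overlapped at treated sample 3. Other rises were Atf5, Chac1, Atf3 and Dnajc3, from 0.43 down to 0.15. Asns, for asparagine synthetase, fell by 0.36, and the other falls were Prkra, Gcn1l1 and Cebpg, with differences of −0.325, −0.294 and −0.185. Atf4 and Ddit3, which code for the main transcription factors of the response, differed by 0.04 and 0.18 and did not pass. ATF4 is controlled largely at translation, which RNA levels do not show. Among mitochondrial translation factors 3 of 10 fell, the largest being Tufm at −0.37, and none rose.

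**Figure D3:**
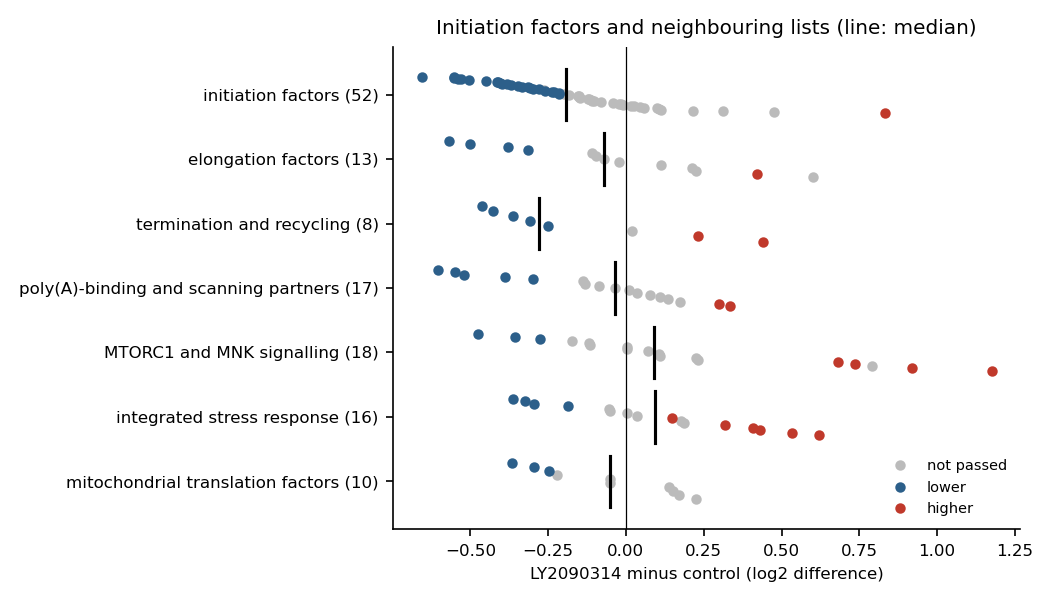
Log2 difference, LY2090314 minus control (x axis), of each tested gene in the set of 52 initiation factor genes and in 6 neighbouring lists (y axis, number tested in parentheses). Blue marks genes that fell, red genes that rose, grey genes that did not pass at an adjusted p of 0.05, and a black line is the median. The set of initiation factors has 24 blue points and 1 red point, and the MTORC1 and MNK list has its red points at 0.68 and above.

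Sample 3 of each group stood apart from the other samples in these genes. Control sample 3 was the highest control in 37 of the 52 genes, or 71.2%, against 42.3% of all genes tested, and treated sample 3 the highest treated sample in 40, or 76.9%, against 43.0%. Both were the highest in 32 genes and both the lowest in 5. Their deviations from the group means had a Pearson correlation of 0.74 across the 52 genes and 0.34 across all genes tested. These are descriptions across genes, which share their libraries. Over all genes the standard deviation of the difference between samples was 0.185 to 0.253 within groups and 0.581 or more between groups, so sample 3 stayed nearer to its own group than to the other. Between control samples 1 and 2 and treated samples 1 and 2 the correlations ran from 0.38 to 0.66 over the 52 genes and from 0.04 to 0.26 over all genes, the highest being that of control sample 1 with treated sample 2. Whether samples that deviate together share a mouse was not tested. Leaving out control sample 3 alone gave 25 genes changed, 23 lower and 2 higher, not all of them the same genes as in the full comparison. Leaving out treated sample 3 alone gave 33, with a treated group of samples 1 and 2, which share a library number.

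Without both samples numbered 3, a choice made after seeing the data, 38 of the 52 genes passed, of which 33 were lower and 5 higher. Over all genes, 27.7% were then lower and 27.9% higher. All 24 genes that fell in the full comparison were lower, and Eif2ak3 was higher. Joining the falls were Eif1a, Eif2a, Eif2b2, Eif2s3x, Eif3a, Eif3e, Eif3i, Eif4b and Eif4e2. The new rises were Eif3f, Eif3h, Eif4a2 and Eif4g3. With 2 samples a group, each gene's spread rests on fewer values. The treated samples left, 1 and 2, share a library number, so their spread may not be that of separate cultures. Whether the added calls rest on this was not tested. With those samples counted as 1 and both samples numbered 3 kept, 21 of the 52 genes passed.

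**Figure D4:**
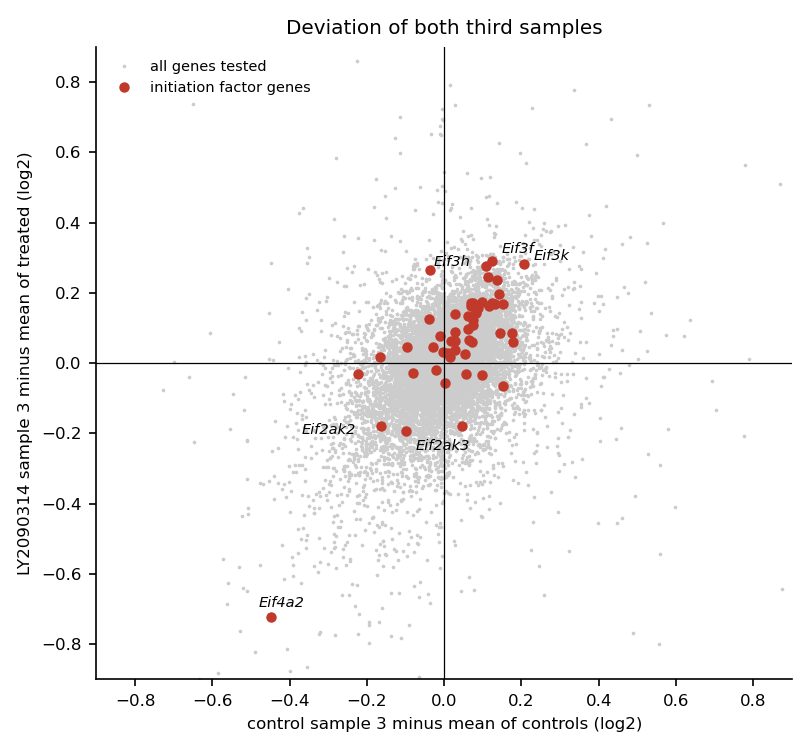
Deviation of control sample 3 from the control mean (x axis, log2) against the deviation of treated sample 3 from the treated mean (y axis, log2), with the 52 initiation factor genes in red over all genes tested in grey. Most red points lie in the upper right part, where both samples are above their group means, and Eif4a2 lies at the lower left. Both axes end at 0.9 and leave out 34 genes.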

How the data were processed

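Polyadenylated RNA was sequenced from 12 samples in 4 groups with a stranded kit. Per the methods, the authors aligned reads to GRCm38 with STAR, used GENCODE vM24 and quantified with Salmon, and the labels name DESeq2 1.30.1. The authors deposited 1 table of log2 values (rlog), in which values of genes with few reads are shrunk towards the mean of the gene, so small differences may be understated. The samples and options of that transformation, and any strand setting, are not given in the sources used here. Columns were matched to groups by name, which gave 3 control and 3 treated columns, and the other 6 columns were not used. Depth is unknown.

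Genes with a mean rlog of at least 3 over the 6 samples entered a linear model of group means in R 4.3.3 (limma 3.58.1, empirical Bayes moderation with a variance trend), p-values were adjusted by Benjamini-Hochberg over 11536 genes, and the calculation was tested on simulated data. This replaces the count model of the study, which needs counts. Members and lists were chosen with earlier results of these data known. Named with all their values were the eIF2 kinases, 4E-binding proteins, eIF2B subunits, Eif4e, Eif4g1, Eif2s3x, up to 8 rises and the 8 largest falls past 0.05 without overlap, and the largest change of each role group, with the largest rise and fall of each neighbouring list, and the other genes named were added after their values were seen. Positions are from GENCODE vM21, of the same build. Near-identical coding sequences were searched with blastn 2.17.0 (at least 95% identity over 80% of the length). Copies were found for 13 of the genes, and apart from those of Eif1, Eif3j1, Eif3j2 and Eif4a1 none in the table had a mean rlog above 3. Alternatives were the variance model, limits on the mean, scaling, each sample left out, the threshold, a limit on size, and samples with a shared library number counted as 1.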

Additional observations from a re-analysis of the deposited data

How the results depend on the processing

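No paired analysis was possible because no column name holds the replicate number that a title gives, or a mouse, and pairs were not built from the values. Leaving out each sample in turn gave 20 to 33 initiation factor genes changed (19 to 31 lower, 1 to 2 higher), 31 to 44 genes of the neighbouring lists, 4734 to 6228 genes in all and a median difference of −0.24 to −0.16. A second rise appeared without control sample 3 (Eif4g3), without treated sample 3 (Eif4a2) and with quantile normalization (Eif3f), giving 2 each. Without both samples numbered 3 there were 38 changed with 5 higher, and 25 rises in the neighbouring lists. With treated samples 1 and 2, which share a library number, counted as 1 sample, 21 initiation factor genes changed (20 lower, 1 higher). In all, 4936 genes changed in that fit, and Eif3c, Eif3l, Eif3m and Eif5a2 no longer passed. Whether treated samples 1 and 2 are separate cultures is not given in the labels. A limit of 0.5 on the absolute log2 difference left 2388 genes in all (1307 higher, 1081 lower), 7 initiation factor genes (6 lower) and 10 of the lists (6 higher, 4 lower). An adjusted p under 0.01 left 9 rises in the lists. Calls of 19 of the 24 falls held in all 6 fits without a sample, the exceptions being Eif2d, Eif3c, Eif3l, Eif3m and Eif5a2. Quantile normalization moved the share of all calls that were higher from 49.5% to 43.4%. Among genes that never passed, Eif2ak2 took values of −0.001 after centring on the median, −0.003 after quantile normalization, −0.020 with the shared library number counted as 1 sample and −0.056 and −0.046 without control sample 3 and treated sample 2 (−0.056 to 0.115 over the fits without a sample), and Eif2ak1 values of 0.004 and 0.005 with quantile normalization and the shared library number, and 0.027 and 0.022 without control sample 3 and treated sample 1 (−0.039 to 0.027 over those fits). The cause of these shifts was not tested. Shrunken log2 values without counts leave the precision of weakly expressed genes unknown.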
